A study of Drosophila melanogaster with 12 samples.

Results

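The Dpr and DIP genes of *Drosophila melanogaster* were taken as every gene whose annotated name is dpr followed by a number or DIP- followed by a Greek letter from alpha to lambda. The rule found 32 genes, 21 Dpr and 11 DIP, among the 17807 genes of the deposited count table, and all 32 passed the filter on low counts in each of the 3 main fits. The libraries came from brain lobes dissected from L3 larvae of 3 genotypes, with RNA immunoprecipitated by an antibody to N6-methyladenosine (m6A), termed meRIP, and RNA libraries titled Input, termed input. Wildtype (Oregon_R) brains, which consist mostly of neurons, gave neuron-biased RNA. Brains of larvae labelled insc_aPKC_CAAX, in which *insc-Gal4* drove *UAS-aPKC* CAAX, a membrane-targeted form of atypical protein kinase C, in neuroblasts, gave neuroblast-biased RNA. *Mettl3* null brains lacked the m6A methyltransferase and gave the background of the antibody. Each of the 6 combinations had 2 libraries, and the labels name no allele of *Mettl3* and no number of larvae in a library.

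Dpr (defective proboscis extension response) and DIP (Dpr-interacting protein) proteins are small cell-surface members of the immunoglobulin superfamily that are found mostly on neurons. Dprs on one neuron bind particular DIPs on another, and single neuron types carry different sets of both, so that the interacting sets are used in synaptic partner choice, target layer selection and cell survival in the visual system, the mushroom body and the motor system. Mettl3 is the catalytic subunit of the complex that methylates adenosine in mRNA, and in flies m6A lies mostly in 5′ UTRs in sequences with an AAAC core.

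To show the sequence that m6A mapping in flies has pointed to, the AAAC nearest to the start codon in the longest annotated 5′ UTR is given for 14 of the genes whose values are described below, as 24 bases of the transcript strand written 5′ to 3′ with the AAAC in capitals. The set holds genes with and without a Mettl3-dependent signal, so a match is only a description of the letters. Each capital run begins between 39 and 396 bases before the start codon. Sequence and coordinates are those of BDGP6.
DIP-alpha (chrX:3541871-3541894, - strand): tatttattgcAAACatacatatat
dpr6 (chr3L:10003626-10003649, + strand): tagaaaagccAAACggcggctaag
dpr10 (chr3L:10182418-10182441, - strand): ccgtagatcaAAACtcgcaaagcc
DIP-beta (chrX:21442697-21442720, - strand): ccatcaaagtAAACacatgagaag
dpr8 (chrX:14408224-14408247, + strand): cgttcctcacAAACagacttggcc
dpr9 (chr3R:15071884-15071907, - strand): ggaaaagagcAAACggaaagggag
DIP-gamma (chr3R:28927876-28927899, - strand): aataataggaAAACaaagagtgcc
dpr11 (chr3R:6566471-6566494, - strand): tacccaaagaAAACcccgagcgtt
dpr15 (chr3R:12156258-12156281, - strand): accgaatcggAAACccggaacgag
dpr16 (chr3R:5153872-5153895, + strand): cgttaatcccAAACcaatcccagc
dpr17 (chr3R:12096504-12096527, + strand): ttaattcaatAAACctatttatct
DIP-delta (chr3L:5429449-5429472, + strand): agataaaattAAACgcagaaaagc
dpr2 (chr2L:10961293-10961316, - strand): caaaatacgtAAACttgtggggct
dpr20 (chr3L:856792-856815, - strand): ggccaaaccaAAACgagcaggcaa

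Library totals ran from 4220420 to 31352131 counts, and levels are given as CPM, counts scaled to library size with the TMM factors of the 12 libraries together. *Mettl3* itself was at 2.25 to 9.05 CPM in the 4 *Mettl3* null libraries and at 13.4 to 28.5 CPM in the other 8, without overlap, and *aPKC* input was 423.3 and 342.9 CPM in neuroblast-biased against 115.9 to 180.5 CPM in the other 4 input libraries. The first neuroblast-biased input library had 0 counts for 12 of the 32 genes, of which 10 were above 0 in the second, and 3.92% of the 6335 genes averaging 10 CPM or more were at 0 in it against at most 0.442% in any other library. The replicate spread was also widest there, with an SD of the log2 difference between replicates of 1.01 in neuroblast-biased input against 0.336 to 0.654 in the other groups. Neuron markers were lower in neuroblast-biased than in wildtype input for 12 of 12 genes (summed level 1638 and 1711 CPM against 4879 and 4730 CPM) and neuroblast markers higher for 7 of 7 (2676 and 2686 CPM against 588.7 and 648.4 CPM). The 7 neuroblast markers include *aPKC*, the gene of the transgene, whose 423.3 and 342.9 CPM are part of that sum. Its rise cannot be told apart from expression of the transgene. Glial markers were lower for 4 of 7 genes, at 582.4 and 452 CPM against 794 and 800.8 CPM. *Mettl3* null input, part of the reference for every enrichment value, held 1204 and 1107 CPM of the glial and 5937 and 6294 CPM of the neuron markers, with 1 marker of each called higher than in wildtype, and its meRIP libraries held 1937 and 1745 CPM of the glial markers against 940.4 and 973.1 CPM in wildtype meRIP. Salivary gland markers were lower for 6 of 6, with a sum of 178.5 and 173 CPM for wildtype, 0 for each neuroblast-biased library, and 7.78 and 17.1 CPM for *Mettl3* null. The part of these cell types in the results was not tested, and a bulk library cannot tell fewer neurons from less RNA in each neuron.

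All 32 genes had a lower fitted level in neuroblast-biased than in wildtype input, and 7 of them fell past the test, *dpr1*, *dpr9*, *dpr11*, *dpr12*, *dpr20*, *DIP-beta* and *DIP-gamma*. A gene is described as called, or as having risen or fallen, where limma-voom gave a Benjamini-Hochberg adjusted p under 0.05 over all genes tested. Of 9423 genes tested, 8.09% were called lower, against these 7 of 32, and 27 of the 32 were lower at an unadjusted p under 0.05, as were 1546 of the 9423. The median log2 fold change (log2FC) of the members was -3.12, or -3.06 with *dpr20* and *DIP-iota* set at their limits, against -0.17 over all genes. The members summed to 1156 and 1184 CPM for wildtype, 249.8 and 299.2 CPM for neuroblast-biased and 1257 and 1290 CPM for *Mettl3* null input. The neuroblast-biased libraries lay below the others for both families, with Dpr genes at 153.2 and 209.5 CPM against 835.8 and 856.2 CPM in wildtype and DIP genes at 96.7 and 89.7 CPM against 320.0 and 328.1 CPM. The number of called genes was 12 with edgeR and 18 with DESeq2, 2 without either wildtype input library, and 3 without the second neuroblast-biased input library.

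**Figure D1:**
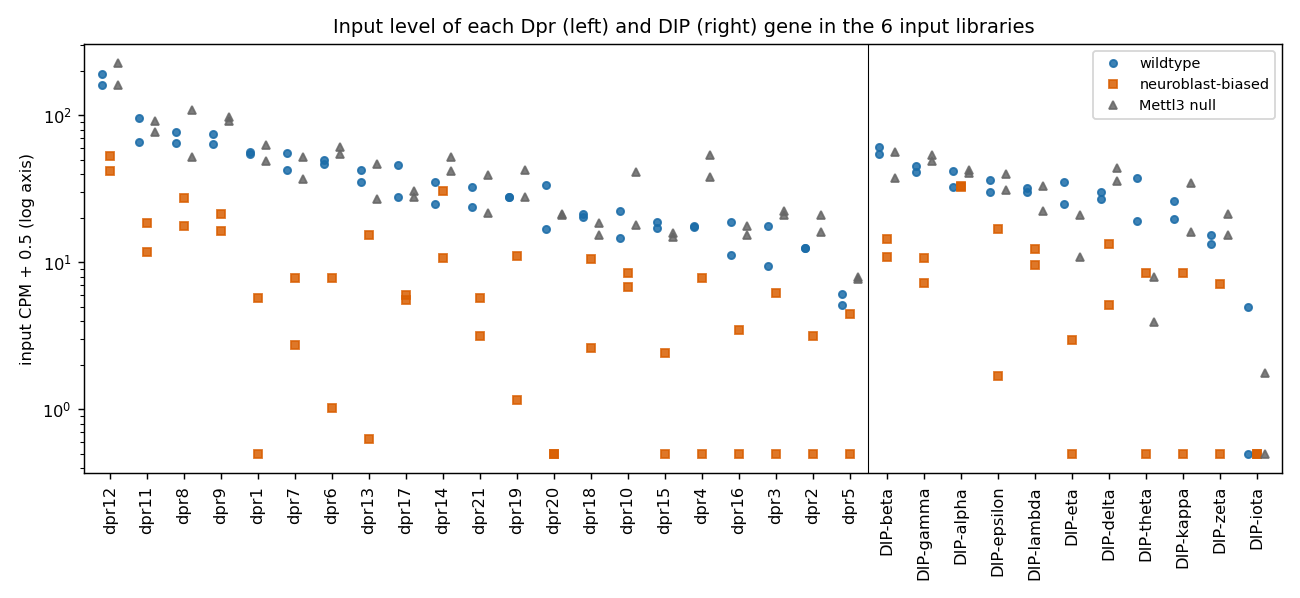
Input level in CPM plus 0.5, on a log axis, of the 21 Dpr genes (left) and 11 DIP genes (right) in each of the 6 input libraries, ordered by wildtype mean within each family. Neuroblast-biased squares lie below the wildtype circles for most genes, *DIP-alpha* has the 3 genotypes at nearly the same level, and the lowest row of squares marks libraries with 0 counts.

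Per kilobase of exon, wildtype input levels ran from 37.1 CPM for *dpr12* and 32.0 CPM for *dpr7* down to 1.69 CPM for *DIP-iota*. *dpr12* (FBgn0085414, chromosome 2R from 5804712 to 5860831) encodes the partner of DIP-delta, a pair known for the wiring of mushroom body gamma neurons with dopaminergic neurons. The input level of *dpr12* was 159.9 and 189 CPM in the wildtype libraries, 41.4 and 52.6 CPM in the neuroblast-biased and 159 and 224 CPM in the *Mettl3* null libraries. After immunoprecipitation it was 579 and 481 CPM, 188 and 240.5 CPM and 209.6 and 228 CPM in the same order of genotypes. Neuroblast-biased input lay below all other input libraries for *dpr12* (log2FC against wildtype -1.87, SE 0.31, adjusted p 0.000854), a call kept in all 14 alternatives. *dpr1* (FBgn0040726, chromosome 2R from 20698483 to 20750442) is the founding member, named for its role in the response to salt. In input, *dpr1* had 53.8 and 55.7 CPM in wildtype, 0 and 5.25 CPM in neuroblast-biased and 61.9 and 48.1 CPM in *Mettl3* null brains. In meRIP, *dpr1* had 335 and 349 CPM in wildtype, 65.2 and 85.1 CPM in neuroblast-biased and 40.2 and 54.7 CPM in *Mettl3* null brains. Neuroblast-biased input of *dpr1* lay below the others (log2FC -6.28, SE 1.96, adjusted p 0.0484), and its first library had 0 counts. That call held in 8 of 14 alternatives, with log2FC from -9.68 to -3.33, and was lost with DESeq2, the compared groups alone and sample quality weights and without either wildtype or the second neuroblast-biased library. *dpr20* (FBgn0035170, chromosome 3L from 852720 to 857248) was not counted in either neuroblast-biased input library, while meRIP of that genotype held 360 and 511 counts of it. Wildtype input held 33.02 and 16.3 CPM of *dpr20*, against 0 and 0 CPM in neuroblast-biased and 20.7 and 20.4 CPM in *Mettl3* null input. *dpr20* reached 73.6 and 75.2 CPM in wildtype meRIP, 13.9 and 25.1 CPM in neuroblast-biased and 17.5 and 16.6 CPM in *Mettl3* null brains. Against wildtype its neuroblast-biased input level fell (adjusted p 0.0249 in limma-voom). Computed against 3 counts in each library, it was at least 73.4-fold lower for counting error alone. That limit leaves out the spread between the neuroblast-biased input libraries, where *dpr1* had 0 and 57 counts. The call of *dpr20* was lost without either neuroblast-biased or the first wildtype input library, with the compared groups alone and with sample quality weights, where the adjusted p reached 0.216.

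*DIP-alpha* (FBgn0052791, chromosome X from 3507245 to 3571649), with its partners *dpr6* and *dpr10*, forms a well-studied binding group, which acts in motor neuron branching onto muscles and in the medulla of the optic lobe. In input, *DIP-alpha* had 32.1 and 41.1 CPM in wildtype, 31.9 and 32.4 CPM in neuroblast-biased and 41.96 and 40.1 CPM in *Mettl3* null brains. In meRIP, *DIP-alpha* had 52.7 and 56.4 CPM in wildtype, 46.8 and 39.99 CPM in neuroblast-biased and 39.3 and 40.8 CPM in *Mettl3* null brains. The wildtype input libraries of *DIP-alpha* overlapped those of both other genotypes (log2FC -0.20, SE 0.38, adjusted p 0.769 for neuroblast-biased against wildtype), the smallest difference of the 32, and in meRIP the difference from *Mettl3* null in the wildtype libraries was not called (log2FC 0.51, SE 0.23, adjusted p 0.109). *dpr6* (FBgn0040823, chromosome 3L from 9974651 to 10139360) behaved otherwise. The input level of *dpr6* was 48.95 and 45.9 CPM in the wildtype libraries, 0.526 and 7.38 CPM in the neuroblast-biased and 60.7 and 53.7 CPM in the *Mettl3* null libraries. After immunoprecipitation it was 368 and 467 CPM, 35.99 and 72.02 CPM and 68.3 and 80.8 CPM in the same order of genotypes. The wildtype meRIP libraries exceeded both other genotypes by several fold for *dpr6* (log2FC 2.56, SE 0.26, adjusted p 1.79e-08 against *Mettl3* null), and the lower neuroblast-biased input was not called (log2FC -4.26, SE 1.38, adjusted p 0.0574). *dpr10* (FBgn0052057, chromosome 3L from 10147454 to 10186108) lies beside *dpr6*, 8.09 kb away on the opposite strand. In input, *dpr10* had 21.9 and 14.2 CPM in wildtype, 6.31 and 7.93 CPM in neuroblast-biased and 17.6 and 40.7 CPM in *Mettl3* null brains. In meRIP, *dpr10* had 121 and 117 CPM in wildtype, 12.4 and 24.2 CPM in neuroblast-biased and 18.6 and 25.3 CPM in *Mettl3* null brains. Wildtype meRIP of *dpr10* stood above the other 4 meRIP libraries (log2FC 2.57, SE 0.27, adjusted p 3.48e-08 against *Mettl3* null), although its input overlapped between wildtype and *Mettl3* null. The meRIP to input ratio, the mean meRIP CPM over the mean input CPM, was therefore 8.80 for *dpr6* and 6.61 for *dpr10* in wildtype, against 1.30 and 0.753 in *Mettl3* null brains. For their partner *DIP-alpha* it was 1.49 and 0.976.

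*DIP-beta* (FBgn0259245, chromosome X from 21422115 to 21457738) binds Dpr8, Dpr9 and Dpr21. Wildtype input held 54.1 and 60.1 CPM of *DIP-beta*, against 10.4 and 13.8 CPM in neuroblast-biased and 37.1 and 55.5 CPM in *Mettl3* null input. *DIP-beta* reached 81.7 and 105 CPM in wildtype meRIP, 19.4 and 17.7 CPM in neuroblast-biased and 62.4 and 75.97 CPM in *Mettl3* null brains. Neuroblast-biased brains were lower in both kinds of library for *DIP-beta* (input log2FC -2.18, SE 0.55, adjusted p 0.0154), while wildtype and *Mettl3* null meRIP did not differ past the test (log2FC 0.50, SE 0.22, adjusted p 0.11). *dpr8* (FBgn0052600, chromosome X from 14322226 to 14462351) was the member of this group with the highest meRIP level. Wildtype input held 76.02 and 64.5 CPM of *dpr8*, against 17.2 and 27.1 CPM in neuroblast-biased and 108 and 51.6 CPM in *Mettl3* null input. *dpr8* reached 442 and 382 CPM in wildtype meRIP, 101 and 161 CPM in neuroblast-biased and 80.8 and 97.7 CPM in *Mettl3* null brains. The wildtype meRIP libraries lay above all others for *dpr8* (log2FC 2.28, SE 0.23, adjusted p 2.25e-08 against *Mettl3* null), and the neuroblast-biased meRIP libraries also lay above *Mettl3* null. *dpr9* (FBgn0038282, chromosome 3R from 15054930 to 15077206) had a similar input level to *dpr8* and no such excess. The input level of *dpr9* was 63.4 and 74.1 CPM in the wildtype libraries, 15.9 and 20.8 CPM in the neuroblast-biased and 91.03 and 96.6 CPM in the *Mettl3* null libraries. After immunoprecipitation it was 78.6 and 107 CPM, 17.9 and 19.6 CPM and 64.7 and 104 CPM in the same order of genotypes. Wildtype and *Mettl3* null meRIP libraries overlapped for *dpr9* (log2FC 0.25, SE 0.24, adjusted p 0.514), and neuroblast-biased input fell (log2FC -1.87, SE 0.41, adjusted p 0.00693). *dpr21* (FBgn0260995, chromosome 2R from 3066499 to 3191011) had an annotated 5′ UTR of 88 bases, the shortest of the 32 genes. The input level of *dpr21* was 32.1 and 23.4 CPM in the wildtype libraries, 5.26 and 2.67 CPM in the neuroblast-biased and 21.02 and 38.5 CPM in the *Mettl3* null libraries. After immunoprecipitation it was 62.5 and 59.7 CPM, 5.57 and 15.8 CPM and 10.5 and 12.4 CPM in the same order of genotypes. Wildtype meRIP exceeded the other 4 meRIP libraries for *dpr21* (log2FC 2.52, SE 0.33, adjusted p 1.13e-06 against *Mettl3* null), and its neuroblast-biased and *Mettl3* null meRIP libraries overlapped.

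*DIP-gamma* (FBgn0039617, chromosome 3R from 28925004 to 28970372) binds Dpr11, Dpr15, Dpr16 and Dpr17, and its pairing with Dpr11 is known from R7 photoreceptors and their target cells. The input level of *DIP-gamma* was 40.5 and 44.8 CPM in the wildtype libraries, 6.71 and 10.1 CPM in the neuroblast-biased and 53.1 and 48.02 CPM in the *Mettl3* null libraries. After immunoprecipitation it was 119.7 and 94.1 CPM, 32.4 and 36.2 CPM and 64.2 and 58.9 CPM in the same order of genotypes. Neuroblast-biased input of *DIP-gamma* fell (log2FC -2.27, SE 0.67, adjusted p 0.0365) and wildtype meRIP rose over *Mettl3* null (log2FC 0.85, SE 0.21, adjusted p 0.00389). The input call of *DIP-gamma* held in 9 of 14 alternatives, with log2FC from -2.65 to -2.05. It was lost with sample quality weights and without either wildtype or either neuroblast-biased input library. The meRIP call of *DIP-gamma* held in 10 of 14 alternatives. It was lost with library size alone and without the first wildtype or either *Mettl3* null meRIP library. *dpr11* (FBgn0053202, chromosome 3R from 6529169 to 6593330) showed the larger meRIP difference. Wildtype input held 65.8 and 94.96 CPM of *dpr11*, against 18.1 and 11.3 CPM in neuroblast-biased and 76.97 and 91.2 CPM in *Mettl3* null input. *dpr11* reached 354 and 344 CPM in wildtype meRIP, 61.96 and 85.1 CPM in neuroblast-biased and 100.2 and 86.4 CPM in *Mettl3* null brains. The wildtype meRIP libraries stood apart from the other 4 for *dpr11* (log2FC 1.96, SE 0.22, adjusted p 6.56e-08), and its neuroblast-biased input fell (log2FC -2.59, SE 0.49, adjusted p 0.00253). *dpr17* (FBgn0051361, chromosome 3R from 12094876 to 12111420) and *dpr15* (FBgn0037993, chromosome 3R from 12138833 to 12158595) lie 27.4 kb apart and differed in meRIP. Wildtype input held 45.7 and 27.4 CPM of *dpr17*, against 5.52 and 5.07 CPM in neuroblast-biased and 30.2 and 27.2 CPM in *Mettl3* null input. *dpr17* reached 259 and 251 CPM in wildtype meRIP, 42.5 and 52.2 CPM in neuroblast-biased and 49.2 and 58.9 CPM in *Mettl3* null brains. Wildtype meRIP of *dpr17* was above every other library (log2FC 2.33, SE 0.22, adjusted p 7.03e-09 against *Mettl3* null). The input level of *dpr15* was 16.7 and 18.3 CPM in the wildtype libraries, 0 and 1.94 CPM in the neuroblast-biased and 14.4 and 15.3 CPM in the *Mettl3* null libraries. After immunoprecipitation it was 20.7 and 22.9 CPM, 3.60 and 2.50 CPM and 21.99 and 29.7 CPM in the same order of genotypes. The wildtype meRIP libraries of *dpr15* did not exceed *Mettl3* null (log2FC -0.13, SE 0.27, adjusted p 0.789), and neuroblast-biased meRIP was far below both. *dpr16* (FBgn0037295, chromosome 3R from 5150908 to 5170121) lay between these. In input, *dpr16* had 10.8 and 18.5 CPM in wildtype, 0 and 2.95 CPM in neuroblast-biased and 17.1 and 14.8 CPM in *Mettl3* null brains. In meRIP, *dpr16* had 31.4 and 29.1 CPM in wildtype, 12.8 and 11.99 CPM in neuroblast-biased and 12.9 and 14.3 CPM in *Mettl3* null brains. Wildtype meRIP rose over *Mettl3* null for *dpr16* (log2FC 1.25, SE 0.27, adjusted p 0.000949). *dpr15* and *dpr16* had 0 counts in the first neuroblast-biased input library, and their input differences were not called.

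*DIP-delta* (FBgn0085420, chromosome 3L from 5424109 to 5442399), the partner of Dpr12, was one of 2 DIP genes called for the wildtype ratio described below. In input, *DIP-delta* had 29.6 and 26.6 CPM in wildtype, 12.8 and 4.61 CPM in neuroblast-biased and 35.5 and 43.4 CPM in *Mettl3* null brains. In meRIP, *DIP-delta* had 78.6 and 121 CPM in wildtype, 11.6 and 27.6 CPM in neuroblast-biased and 27.8 and 40.6 CPM in *Mettl3* null brains. Wildtype meRIP exceeded the other 4 libraries for *DIP-delta* (log2FC 1.65, SE 0.30, adjusted p 9.69e-05 against *Mettl3* null). The other was *DIP-epsilon* (FBgn0259714, chromosome 2L from 6377771 to 6411326). Wildtype input held 36.1 and 29.4 CPM of *DIP-epsilon*, against 16.4 and 1.20 CPM in neuroblast-biased and 39.2 and 30.7 CPM in *Mettl3* null input. *DIP-epsilon* reached 112 and 108 CPM in wildtype meRIP, 15.1 and 21.1 CPM in neuroblast-biased and 26.5 and 30.3 CPM in *Mettl3* null brains. Its neuroblast-biased input libraries were far apart, and wildtype meRIP rose over *Mettl3* null (log2FC 2.04, SE 0.23, adjusted p 1.29e-07). Ratios in wildtype were 3.55 for *DIP-delta* and 3.37 for *DIP-epsilon*.

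**Figure D2:**
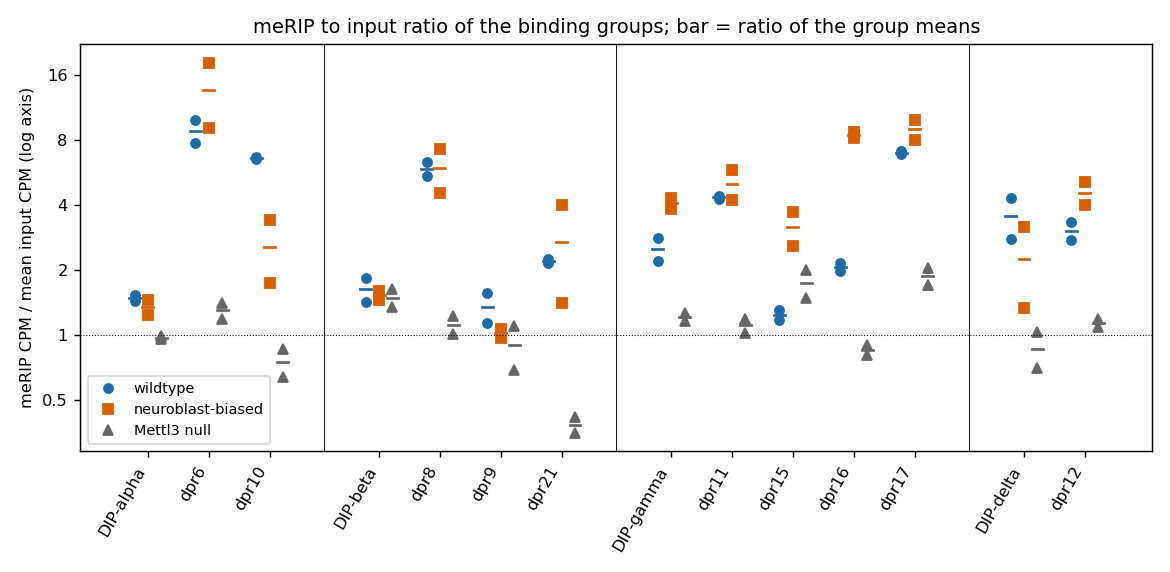
The meRIP to input ratio, each meRIP library over the mean of its input group on a log axis, for 14 genes of 4 binding groups separated by vertical lines, with a bar at the ratio of group means. In wildtype *dpr6* (8.80), *dpr17* (6.98), *dpr10* (6.61) and *dpr8* (5.87) lie well above 1, *dpr15* (1.25) and *dpr9* (1.35) near it, and the *Mettl3* null triangles stay between 0.353 and 2.05.

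Abundance of the members without the methyltransferase was compared in input. None of the 32 genes was called between *Mettl3* null and wildtype input by limma-voom, edgeR or DESeq2, 3 had an unadjusted p under 0.05 in limma-voom, as had 595 of the 9423 genes tested, and 0.255% of all genes were called in either direction. These 3 were *dpr4* (log2FC 1.37, SE 0.53, adjusted p 0.785), *DIP-theta* (log2FC -2.20, SE 0.92, adjusted p 0.785) and *DIP-eta* (log2FC -1.12, SE 0.51, adjusted p 0.785), named here after their values were seen. *dpr4* shares 15.7% of its exon bases with an antisense RNA and *DIP-theta* 12.6% with a non-coding RNA on the same strand, so their reads may be shared. The median over the members was 0.075, with 18 positive and 14 negative values. Against neuroblast-biased input, 11 of the 32 were higher in *Mettl3* null brains, where 9.26% of all genes were called higher. Those 2 comparisons share the *Mettl3* null libraries, and the count of 11 was 4 or 5 without either wildtype or the second neuroblast-biased input library, 6 without the first neuroblast-biased library, 5 with the compared groups alone or with sample quality weights, and 19 with DESeq2.

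To ask which members carried a Mettl3-dependent signal, wildtype meRIP was compared with *Mettl3* null meRIP. Of the 32 genes, 24 rose, 18 of 21 Dpr and 6 of 11 DIP, and none fell, against 16.6% of 9493 genes called higher. Summed over the members, meRIP held 4224 and 4287 CPM in wildtype, 878.1 and 1239 CPM in neuroblast-biased and 1221 and 1417 CPM in *Mettl3* null brains. The wildtype sum stood above the others chiefly through the Dpr genes, at 3574 and 3593 CPM against 920.9 and 1070 CPM in *Mettl3* null, with the DIP genes at 649.9 and 694.7 CPM against 300.0 and 346.4 CPM. The median log2FC was 1.64, against -0.047 over all genes. Scaling by library size alone moved the median of all genes by -0.58, and 17 members were then called, with a median of 1.06. The 8 genes not called were *dpr3*, *dpr9*, *dpr15*, *DIP-alpha*, *DIP-beta*, *DIP-theta*, *DIP-iota* and *DIP-lambda*, with log2FC from -0.13 to 1.64.

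The 11 members given here by range only, *dpr3*, *dpr5*, *dpr14*, *dpr18*, *dpr19*, *DIP-zeta*, *DIP-eta*, *DIP-theta*, *DIP-iota*, *DIP-kappa* and *DIP-lambda*, had 0 to 37.2 CPM in wildtype input and 2.08 to 89.8 CPM in wildtype meRIP, and 7 of them were among the 24. The meRIP to input ratio takes abundance into account. Its difference between wildtype and *Mettl3* null brains, termed enrichment, was called higher for 15 of the 32 genes, 13 of 21 Dpr (*dpr1*, *dpr2*, *dpr4*, *dpr6*, *dpr7*, *dpr8*, *dpr10*, *dpr11*, *dpr12*, *dpr13*, *dpr17*, *dpr20* and *dpr21*) and 2 of 11 DIP (*DIP-delta* and *DIP-epsilon*), and lower for none. Over all 9918 genes, 5.22% were called higher. All 15 were among the 24 called in meRIP alone, a comparison that shares the wildtype and *Mettl3* null meRIP libraries. Wildtype ratios of the 32 members had a median of 2.76 and ran from 0.557 to 8.80, whereas in *Mettl3* null brains they ran from 0.345 to 2.01 with a median of 0.971. Among all genes averaging 10 CPM or more, the median ratios were 0.976 and 1.04. The median enrichment was 1.48 on the log2 scale against -0.18 over all genes, and with library size alone, a shift of -0.51 in the latter, it was 0.96 with 10 genes called. The count was 5 with edgeR, 0 without the second and 4 without the first wildtype input library, 3 without the first *Mettl3* null meRIP library and 9 without the second *Mettl3* null input library. At most 1 library was left out at a time, and an arm with 1 library was taken to vary like the other groups.

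The largest enrichment was that of *dpr2* (FBgn0261871, chromosome 2L from 10917015 to 10964153). Wildtype input held 12.1 and 11.96 CPM of *dpr2*, against 0 and 2.67 CPM in neuroblast-biased and 20.3 and 15.5 CPM in *Mettl3* null input. *dpr2* reached 73.3 and 63.2 CPM in wildtype meRIP, 10.7 and 19.6 CPM in neuroblast-biased and 4.94 and 7.42 CPM in *Mettl3* null brains. Wildtype meRIP of *dpr2* lay above all other libraries and *Mettl3* null meRIP below its own input (enrichment log2FC 4.17, SE 0.85, adjusted p 0.00849). *dpr4* (FBgn0053512, chromosome 3R from 11533483 to 11542949) came next (enrichment log2FC 3.31, SE 0.63, adjusted p 0.00577). In input, *dpr4* had 17.1 and 16.8 CPM in wildtype, 0 and 7.28 CPM in neuroblast-biased and 52.9 and 37.4 CPM in *Mettl3* null brains. In meRIP, *dpr4* had 129 and 111 CPM in wildtype, 17.9 and 31.5 CPM in neuroblast-biased and 32.9 and 29.7 CPM in *Mettl3* null brains. Its *Mettl3* null input was above wildtype input, which enters the ratio. *dpr13* (FBgn0034286, chromosome 2R from 17975122 to 18007902) and *dpr7* (FBgn0053481, chromosome 4 from 247124 to 253329), the one member on chromosome 4, were also called. In input, *dpr13* had 41.7 and 34.7 CPM in wildtype, 0.132 and 14.8 CPM in neuroblast-biased and 45.9 and 26.5 CPM in *Mettl3* null brains. In meRIP, *dpr13* had 292 and 346 CPM in wildtype, 35.1 and 63.4 CPM in neuroblast-biased and 46.9 and 48.9 CPM in *Mettl3* null brains. Both wildtype meRIP libraries of *dpr13* stood above the other 10 libraries (enrichment log2FC 2.65, SE 0.57, adjusted p 0.012). In input, *dpr7* had 41.9 and 55.2 CPM in wildtype, 2.23 and 7.28 CPM in neuroblast-biased and 51.5 and 36.3 CPM in *Mettl3* null brains. In meRIP, *dpr7* had 116 and 138 CPM in wildtype, 16.2 and 44.95 CPM in neuroblast-biased and 13.1 and 29.9 CPM in *Mettl3* null brains. The same held for *dpr7* (enrichment log2FC 2.66, SE 0.63, adjusted p 0.0203). *dpr1* had an enrichment of 2.91 (SE 0.43, adjusted p 0.00158), *dpr10* of 3.27 (SE 0.64, adjusted p 0.007) and *dpr6* of 2.78 (SE 0.47, adjusted p 0.00304). *DIP-delta* had 2.10 (SE 0.57, adjusted p 0.0409) and *DIP-epsilon* 2.13 (SE 0.49, adjusted p 0.0162). With edgeR, 10 of the 15 calls were lost. The call of *dpr1* was lost with edgeR and DESeq2 and held in 17 of 20 alternatives. That of *dpr13* was lost with both and held in 14, and that of *dpr10* was kept with both and held in 17. The call of *DIP-delta* held in 10, lost with edgeR, library size alone and no filter among others. That of *DIP-epsilon* held in 11, lost with edgeR, DESeq2 and library size alone among others. At the other end, *DIP-theta* (-1.61, SE 0.97), *dpr15* (-0.45, SE 0.57) and *DIP-iota* (-0.44, SE 2.54) had negative values that were not called.

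**Figure D3:**
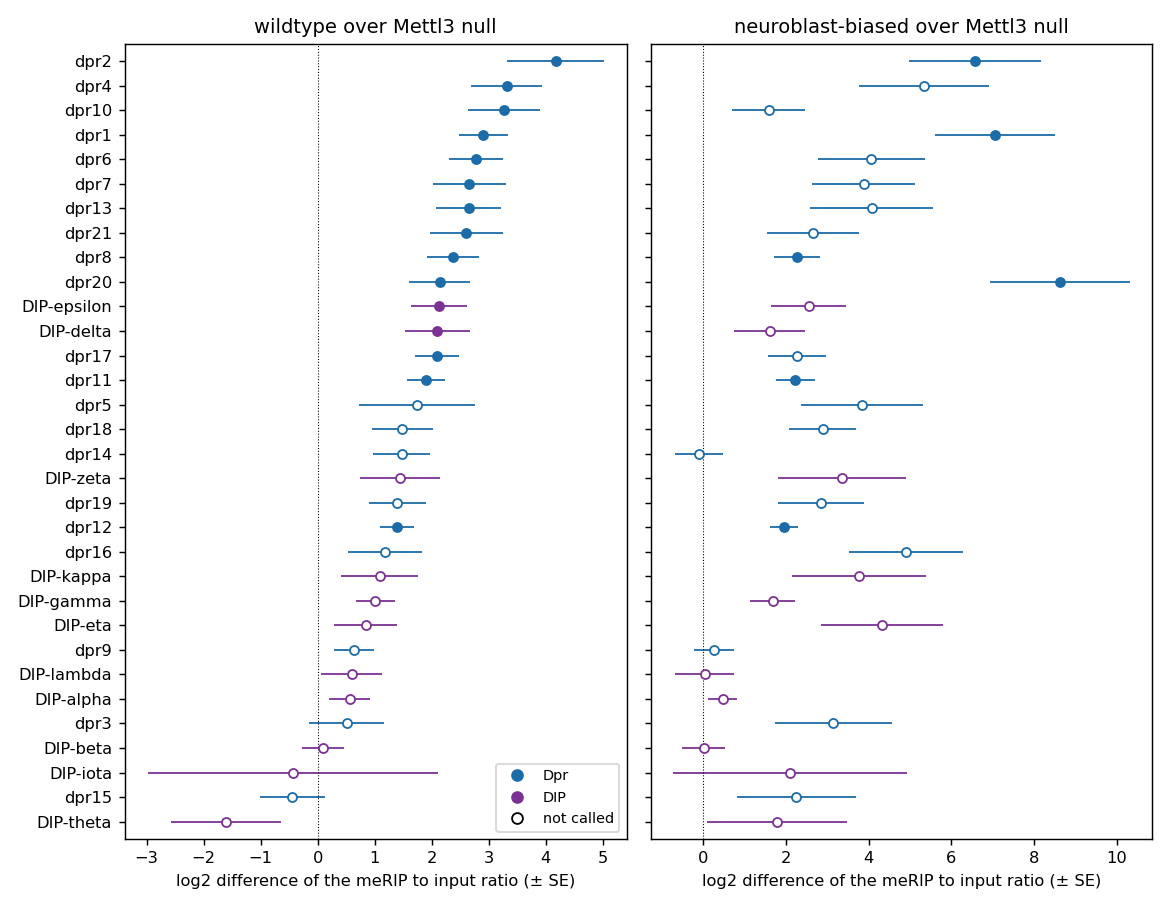
Enrichment, the log2 difference of the meRIP to input ratio from *Mettl3* null with its SE, for wildtype (left, which sets the order) and neuroblast-biased brains (right, on a wider axis), with filled points for called genes. Blue Dpr points fill the upper rows on the left, where 13 Dpr and 2 DIP genes are called, and on the right 6 Dpr genes are called with wider SEs.

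In neuroblast-biased brains the enrichment over *Mettl3* null was called higher for 6 of the 32 genes, *dpr1*, *dpr2*, *dpr8*, *dpr11*, *dpr12* and *dpr20*, and lower for none, against 4.46% of all genes called higher. All 6 were also called in wildtype, a comparison that shares the *Mettl3* null libraries, and 22 of the 32 were higher at an unadjusted p under 0.05, as were 1367 of the 9918 genes tested. The median was 2.60, and 2.22 with library size alone, where 4 were called and all genes shifted by -0.45. The ratio of *dpr1* in neuroblast-biased brains was 28.6 against 6.25 in wildtype, but it rests on input levels of 0 and 5.25 CPM, and the fitted log2 difference between these ratios ran from 1.18 to 7.51 over the alternatives. The ratio of *dpr12* was 4.56 against 3.04, that of *dpr11* 4.99 against 4.34 and that of *dpr8* 5.92 against 5.87. These 3 genes were above 0 in each neuroblast-biased library. For *dpr20* the ratio was at least 58.2 against 3.02, computed against 3 counts in each input library, a limit for counting error alone. The enrichment call of *dpr8* held in 7 of 20 alternatives and that of *dpr12* in 19. The count of 6 rose to 11 with edgeR and 12 with DESeq2 or without the first neuroblast-biased meRIP library, and was 3 without the first neuroblast-biased input or the second *Mettl3* null meRIP library, 2 with the compared groups alone, and 1 with sample quality weights or without the first *Mettl3* null meRIP library.

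The difference of the ratio between neuroblast-biased and wildtype brains, termed stoichiometry, addresses whether the methylated share of a transcript differed between them. None of the 32 genes was called, and 0% of the 9918 genes tested were called, with 674 of them at an unadjusted p under 0.05. An unadjusted p under 0.05 was reached by 6 members, and 1 was called with each of edgeR, DESeq2 and no filter, in each case *dpr20* (log2FC 6.49, SE 1.68, adjusted p 0.692 in limma-voom), which neither neuroblast-biased input library detected. Its ratio was at least 19.3-fold higher than in wildtype at 3 counts in each of these input libraries, a limit for counting error alone. The other members under 0.05 were *dpr1* (log2FC 4.14, SE 1.45, adjusted p 0.692), *dpr16* (log2FC 3.73, SE 1.39, adjusted p 0.692), *DIP-eta* (log2FC 3.47, SE 1.46, adjusted p 0.692) and *DIP-theta* (log2FC 3.40, SE 1.56, adjusted p 0.692), all with 0 counts in the first neuroblast-biased input library, and *dpr14* (log2FC -1.57, SE 0.62, adjusted p 0.692), with a lower ratio. The SEs show what 2 libraries could resolve: 0.34 for *dpr12*, 0.37 for *DIP-alpha* and 0.48 for *dpr11* on the log2 scale, and over 1 for 18 members. RLE factors shifted the median of all genes by -0.16 here, and that of the members from 1.34 to 1.17. Differences for *dpr12* (log2FC 0.57), *dpr11* (0.32) and *DIP-alpha* (-0.09) were within 2 SEs of 0.

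In meRIP RNA itself, neuroblast-biased brains were lower than wildtype for 30 of the 32 genes, against 23.8% of 9493 genes called lower, and the other two, *DIP-alpha* and *DIP-iota*, were not called. Their median log2FC was -2.24, from -3.03 for *dpr6* to -0.32 for *DIP-alpha*, and the count stayed between 29 and 30 in every alternative. Against *Mettl3* null meRIP, neuroblast-biased brains were higher for 4 genes (*dpr1*, *dpr2*, *dpr8* and *dpr18*), where 20.6% of all genes were called higher, and lower for 10, where 18.2% were called lower. The call of *dpr8* held in only 3 of 14 alternatives, with log2FC from 0.078 to 0.93, and those of *dpr1*, *dpr2* and *dpr18* in 11, 12 and 12. The 10 called lower were *dpr3*, *dpr9*, *dpr14*, *dpr15*, *DIP-beta*, *DIP-gamma*, *DIP-delta*, *DIP-zeta*, *DIP-kappa* and *DIP-lambda*. Scaling by library size alone moved the median of all genes by -0.54, and the split was then 0 higher and 18 lower, and without the first *Mettl3* null meRIP library it was 0 and 10. *dpr18* had 24.9 and 30.9 CPM in neuroblast-biased and 13.2 and 18.1 CPM in *Mettl3* null meRIP, against 51.9 and 51.1 CPM in wildtype. The 3 genotypes did not overlap for *dpr18* (log2FC over *Mettl3* null 0.97, SE 0.27, adjusted p 0.00471).

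**Figure D4:**
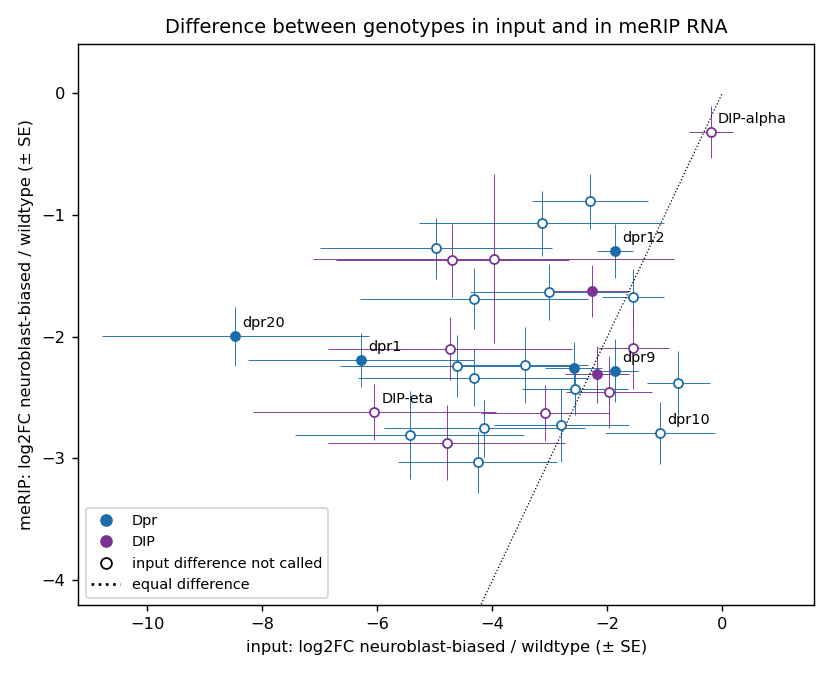
Log2 fold change of neuroblast-biased over wildtype brains in input (horizontal) and in meRIP (vertical), each with its SE and each axis on its own scale, for the 32 genes, where filled points were called in input and the dotted line marks equal differences. The meRIP values lie between -3.03 and -0.32 with short error bars, whereas the input values reach -8.47 for *dpr20* with error bars of over 1 for most genes.

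All 32 genes had an annotated 5′ UTR, and their median 5′ UTR length, merged over transcripts, was 684.5 bases against 146 for protein-coding genes with a 5′ UTR. They were also long genes, with a median span of 32525.5 bases (3738 to 379081) against 2160, and all 32 exceeded that median. They lay on chromosome arms 2L (9 genes), 2R (5), 3L (4), 3R (8), X (5) and 4 (1). AAAC was found at least once in the longest 5′ UTR of 31 genes, and *DIP-eta* had none. Read on both strands, the last 100 bases of the 5′ UTR held AAAC in 54.8% of the 31 members that long and its reverse complement GTTT in 25.8%, against 57.8% and 37.6% of 8447 protein-coding genes, and the pooled density of AAAC was 9.53 per kb against 9.21. The 15 genes called for wildtype enrichment had a median of 7 AAAC (3 to 23) in a 5′ UTR of median length 754 bases, and the 17 others 4 (0 to 14) in 481 bases. Across the 32 genes, which share the same libraries, the number of AAAC and the enrichment had a Pearson correlation of 0.41 and a Spearman correlation of 0.37, and 5′ UTR length and enrichment 0.25 and 0.29, given as a description. *dpr9* and *DIP-alpha*, with 8 and 9 AAAC, were not called, and *dpr20* and *dpr21*, with 3 each, were. The deposited values are counts per gene, so the position of the signal within a transcript was not analysed here.

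**Figure D5:**
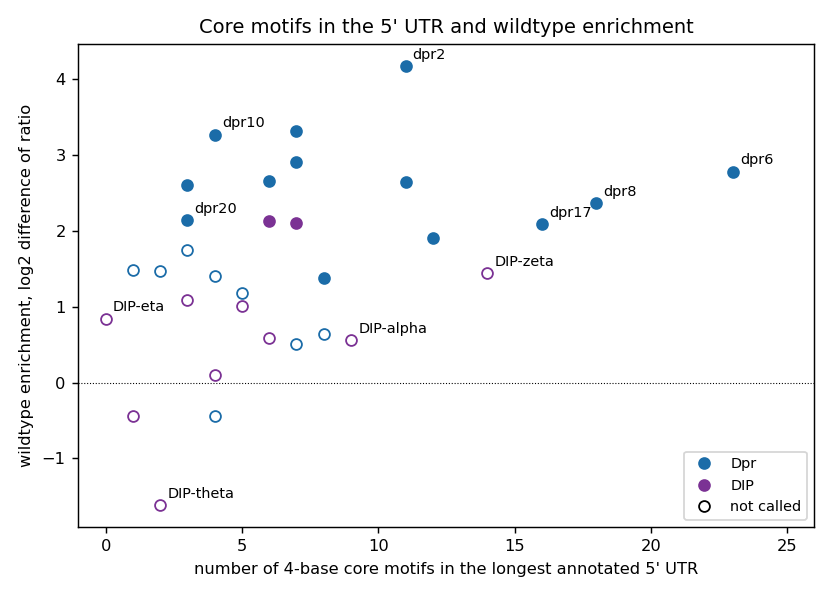
Number of AAAC core motifs in the longest annotated 5′ UTR (horizontal) against wildtype enrichment on the log2 scale (vertical) for the 32 genes, with filled points for called genes. *dpr6* (23 motifs), *dpr8* (18) and *dpr17* (16) are called, *DIP-zeta* (14) is not, and genes with 3 to 8 motifs span enrichment values from below 0 to above 3.

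Other recognition proteins of the immunoglobulin superfamily were counted beside the members, from lists chosen with earlier results of these data known. In neuroblast-biased against wildtype input, 4 of 13 tested *beat* genes, 7 of 8 *side* genes and 21 of 27 further relatives and partners fell. This compares with 7 of 32 members and 8.09% of all genes. The lowest log2FC among those called and averaging 10 CPM or more were those of *Dscam2* (log2FC -3.26, SE 0.22, adjusted p 4.69e-07) and *side-V* (log2FC -2.96, SE 0.44, adjusted p 0.000348). *ImpL2*, a secreted insulin-binding protein, rose (log2FC 3.59, SE 0.27, adjusted p 9.07e-07). Beat proteins guide axons by binding Side proteins. In wildtype over *Mettl3* null meRIP, 10 of 13 *beat*, 8 of 8 *side* and 19 of 27 others rose, against 24 of 32 members and 16.6% of all genes. The *beat* genes that rose included *beat-IIa* (log2FC 3.10, SE 0.24, adjusted p 2.13e-10) and *beat-IIIc* (log2FC 2.92, SE 0.28, adjusted p 7.84e-09). For wildtype enrichment the counts were 7 of 13, 3 of 8 and 15 of 27, against 15 of 32 members and 5.22% of all genes. In neuroblast-biased brains they were 3 of 13, 3 of 8 and 13 of 27, against 6 of 32 members and 4.46% of all genes. Median wildtype enrichment was 1.97 for *beat*, 1.18 for *side* and 1.15 for the others, against 1.48 for the Dpr and DIP genes, and the difference between lists was not tested.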

How the data were processed

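Brain lobes of L3 larvae of 3 genotypes were profiled as input and meRIP, with 2 libraries for each of the 6 labelled groups. The authors deposited 1 table of raw gene counts. By the published methods, Trimmomatic-trimmed reads were mapped with STAR to BDGP6, and meRIP reads were counted with featureCounts. kallisto is named for input, but deposited input counts are whole numbers, so their counter is uncertain. Versions, strand and duplicate removal were not given in the sources used here, so antisense or overlapping genes can share reads. Replicates were biological repeats per the methods, and p-values measure the spread between these libraries. Counts without molecular identifiers are not independent molecules, and limits cover counting error only.

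Names, exons and 5′ UTRs came from Ensembl release 115 (BDGP6), in which 17710 of 17807 identifiers were found. Genes were filtered with filterByExpr (minimum count 10), scaled with TMM and tested with limma-voom, the study's method (limma 3.58.1, edgeR 4.0.16, R 4.3.3), with 1 mean per group, two-sided and with Benjamini-Hochberg adjustment over all genes. Input, meRIP and all 12 libraries were fitted separately, and ratios were tested as interaction contrasts in the last. The scripts were tested on simulated data. The alternatives tried were DESeq2 1.42.0, the quasi-likelihood test of edgeR, RLE factors, library size alone, no filter, compared groups alone, sample quality weights, a replicate block and each library left out. The members, lists and tests were chosen with earlier results of these data known. Values in every library are given for members called for a ratio, for those called in neuroblast-biased against wildtype input with a mean of at least 10 CPM, and for 4 binding groups. From the other lists, the 2 highest and 2 lowest called genes averaging 10 CPM or more in a comparison could be named, and the comparisons described use some of them. Limits for groups at 0 use 3 counts per library. The fitted log2FC and SE of such groups, as for *dpr20*, come from limma-voom without that limit.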

Additional observations from a re-analysis of the deposited data

How the results depend on the processing

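Over 107 called pairs of a member and a comparison, 1624 alternative values were computed, of which 1396 kept the direction and the call, 228 kept the direction and lost the call, and 0 reversed. In neuroblast-biased against wildtype input, the 7 called members became 12 with edgeR and 18 with DESeq2, and 2 to 9 without single libraries. In *Mettl3* null against neuroblast-biased input, 11 became 19 with DESeq2, 5 with the compared groups alone and 5 with sample quality weights, and 4 to 11 without single libraries. For wildtype enrichment, 15 became 5 with edgeR and 0 to 15 without single libraries. For neuroblast-biased enrichment, 6 became 11 with edgeR, 12 with DESeq2, 2 with the compared groups alone and 1 with sample quality weights, and 1 to 12 without single libraries. For stoichiometry, 0 became 1 with edgeR, 1 with DESeq2 and 1 with no filter. The cause was not tested. The other counts, with higher and lower calls added together, stayed within 1.5 times. Their split did not, since 4 higher and 10 lower in neuroblast-biased against *Mettl3* null meRIP became 0 and 18 with library size alone. Without single libraries, meRIP wildtype against *Mettl3* null gave 18 to 25, neuroblast-biased against *Mettl3* null 10 to 14 and neuroblast-biased against wildtype 29 to 30. With the compared groups alone, 31 of the 32 members passed the filter in both input comparisons with neuroblast-biased brains. Precision was lowest in neuroblast-biased input, where 12 members had 0 counts in the first library, of 6005731 counts. The first wildtype input library, of 4220420 counts, had 1 member at 0. The members summed to 249.8 CPM in the neuroblast-biased and 1156 CPM in the wildtype library, which had the smaller total. The second input libraries, of 9051076 counts in neuroblast-biased and 9134184 in wildtype, had 3 and 0 members at 0. The cause of the zeros was not tested.

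Replicate numbers are shared in the titles, but each comparison has only 2 of them. The published study states that RNA of each genotype was divided between input and meRIP, a pairing that the main fits leave out. The correlation of same-numbered deviations was 0.013 to 0.022 between input groups, 0.155 to 0.302 between meRIP groups and -0.043 to 0.086 between meRIP and input of a genotype. With the replicate number as a block, the counts were 9 for neuroblast-biased and 0 for *Mettl3* null against wildtype input, 10 for *Mettl3* null against neuroblast-biased input, 25, 18 and 30 for wildtype against *Mettl3* null, neuroblast-biased against *Mettl3* null and neuroblast-biased against wildtype meRIP, 15 and 8 for wildtype and neuroblast-biased enrichment, and 0 for stoichiometry.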

Other observations

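Among the members, 4 pairs lay within 100 kb of each other. *dpr6* and *dpr10* had wildtype meRIP to input ratios of 8.80 and 6.61 across a gap of 8.09 kb, and *dpr4* and *dpr5* of 7.07 and 4.80 across 27.5 kb. The other 2 pairs were unequal. *dpr17* and *dpr15*, 27.4 kb apart on opposite strands, had ratios of 6.98 and 1.25, and *DIP-eta* and *DIP-theta*, 8.34 kb apart on the same strand, of 2.91 and 0.557. *DIP-theta* had 37.2 and 18.6 CPM in wildtype input, 7.41 and 3.46 CPM in *Mettl3* null input and 16.4 and 14.7 CPM in wildtype meRIP, and was the 1 member besides *DIP-lambda* with a wildtype ratio below 1. These values are given without a test.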
